A study of Homo sapiens with 8 samples.

Results

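The Rab genes were taken as every row of the count matrix whose symbol is RAB followed by a number and at most 1 letter, which gave 50 of 13841 rows. They were compared between 2 groups of A549 cells, a cancer cell line grown from a lung adenocarcinoma and widely used as a model of alveolar epithelium. Both groups came from cells put through 24 h of cyclic stretch, at 15% elongation and 15 cycles per min, then kept for 6 days and stained for β-galactosidase, a lysosomal enzyme activity used as a mark of senescence. Cells that stained (labelled Senescent, here positive, libraries 1, 3, 4 and 5) and cells that did not (labelled Non_senescent, here negative, libraries 2, 6, 7 and 8) were sorted and their RNA was sequenced, and unstretched cells were not analysed here. No library is said to come from a culture of its own, so the p-values rest on a spread between samples that may be technical. The question is whether genes that direct secretion, endosomes and lysosomes differed between stained and unstained cells.

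Rab proteins are small GTPases that give each membrane of the secretory and endocytic routes its identity. In the GTP-bound form a Rab sits on its membrane through lipid anchors and recruits effectors such as tethers, motors and sorting factors, and exchange factors and GTPase-activating proteins turn it on and off. In senescent cells secretion is raised and the lysosomal compartment enlarged, which makes the Rabs of secretion and of lysosomes relevant to a sort by lysosomal activity. By their best known site, the 50 genes were grouped as 22 secretory Rabs (endoplasmic reticulum, Golgi and exocytosis), 13 endosomal Rabs (early and recycling endosomes), 9 lysosomal Rabs (late endosomes, lysosomes, related organelles and autophagosomes) and 6 others. Many Rabs act at several sites, so the grouping is coarse, and counts by class depend on where single genes are placed. Other human Rab genes, RAB5C among them, were not analysed here.

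Library totals ranged from 5634961 to 7990839 counts, of which the 50 Rab rows held 19413 to 24917. The low-count filter kept 49 Rabs and removed RAB39A, a Rab of phagosomes, at 1 to 5 counts per library. Values are given as CPM, counts per 1000000 of a library size adjusted by the TMM method, and each gene was read by its own amplicon, so a level can be compared between libraries but not between genes. Libraries negative 2 and positive 1 stood apart over all genes. Negative 2 was the highest or lowest of the 8 libraries for 55.6% of the 11351 tested rows and positive 1 for 47.8%, against 11% to 21% for the others. Epithelial keratin and A549 enzyme markers were all well counted (KRT8 at 3144 to 8696 counts, AKR1B10 at 10795 to 18029). With EPCAM and CDH1, the 9 tested markers of this list had a median log2 fold change of -0.24. Of the 9, 0 were above 0, and KRT8 was the lowest at -0.52. Of these, AKR1B10 and NQO1 were lower in every positive than in any negative library (log2 fold changes -0.34 and -0.39), and their part in the Rab results was not tested. SFTPB and SFTPC, surfactant genes of alveolar type 2 cells, were at 0 to 3 counts. Of 3 blood markers with a row, HBB was at 375 to 725 counts, CD68 at 101 to 185 and CD14 at 35 to 128. None of these blood markers had an unadjusted p under 0.05. Of 6 fibroblast markers with a row, COL1A1 was at 42 to 68 counts, THY1 at 30 to 86, PDGFRA at 6 to 17, LUM at 0 to 23, COL3A1 at 1 to 8 and DCN at 0 to 5, and none of the 4 that passed the low-count filter had an unadjusted p under 0.05.

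No Rab gene passed the test between positive and negative cells, and most differences were small. The gene with the smallest p was RAB18, a Rab of the endoplasmic reticulum and lipid droplets, which was lower in every positive library than in any negative library. RAB7A and RAB9A, both Rabs of late endosomes, were also lower in positive cells, and RAB36, a Golgi Rab, was higher. Of all 11351 rows, 0 (0%) had an adjusted p under 0.05 by the quasi-likelihood test of edgeR with Benjamini-Hochberg adjustment, with 1631 at an unadjusted p under 0.05 and 52 called by DESeq2's Wald test, no Rab among them. Of the 49 tested Rabs, 4 had an unadjusted p under 0.05 (8.16%), 1 higher and 3 lower, where 14.4% of all rows did (7.52% higher and 6.85% lower). The groups did not overlap for 4 Rabs, RAB36 higher and RAB18, RAB7A and RAB15 lower, or 8.16%, where 9.14% of all rows did (5.0% higher and 4.14% lower). By neither count did the Rabs stand above the background. Their median log2 fold change (positive minus negative) was -0.01, with 24 above and 25 below 0, and that of all rows was -0.02.

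**Figure D1:**
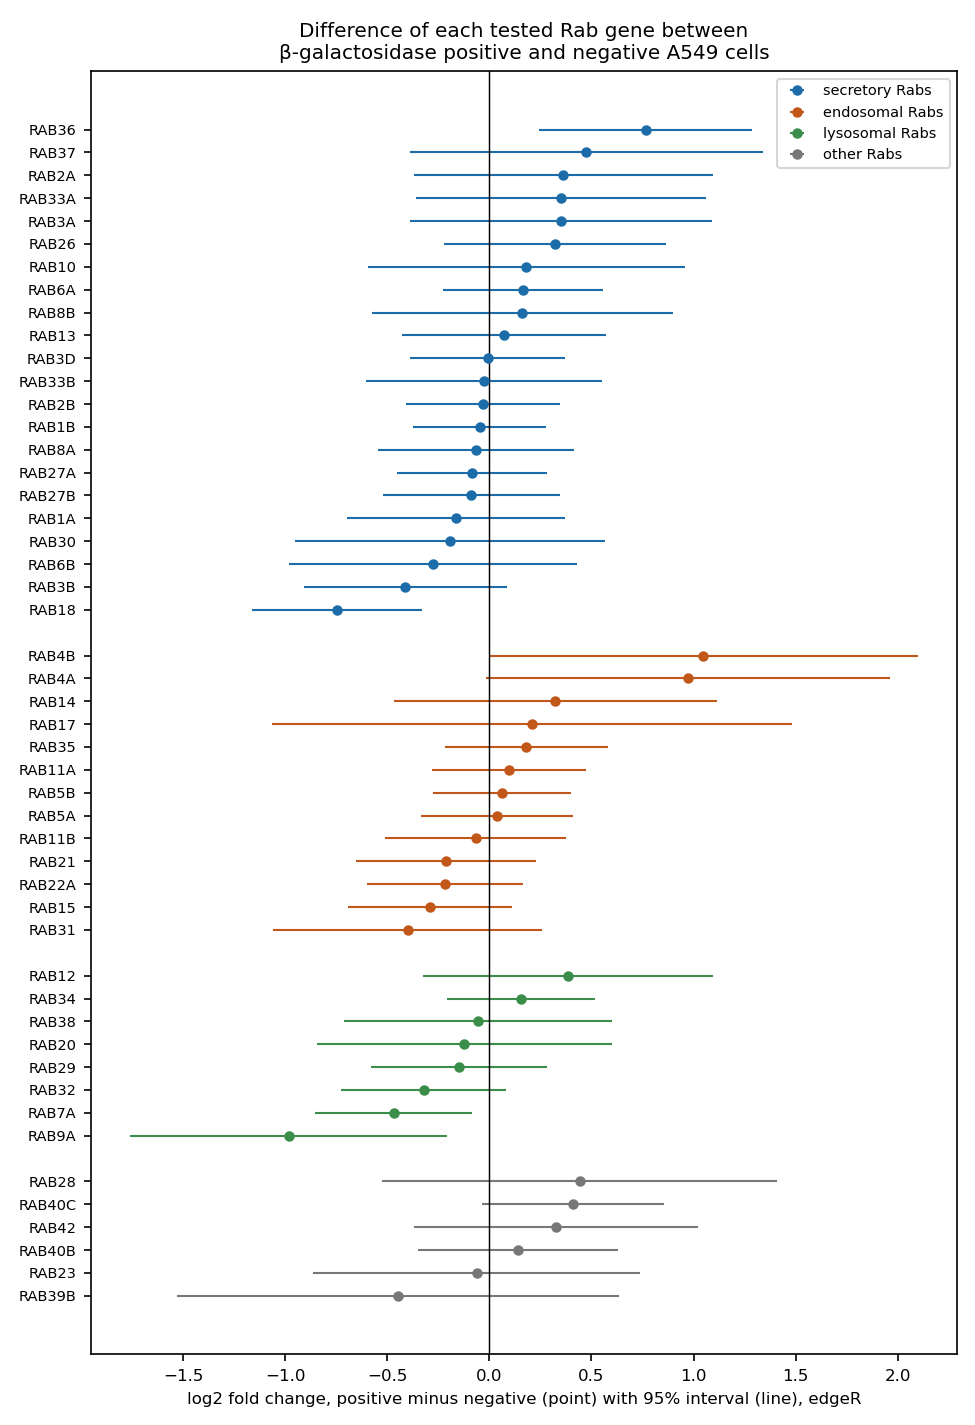
Each point is the log2 fold change of 1 tested Rab gene, positive minus negative cells, with its 95% interval as a line (edgeR, 4 libraries per group), grouped by class. The intervals of 45 of the 49 genes span 0, and those of RAB36, RAB18, RAB7A and RAB9A do not.

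RAB18, which acts at contacts of the endoplasmic reticulum with lipid droplets, was at 58.7, 89.2, 74.3 and 78.0 CPM in positive 1, 3, 4 and 5 and at 164, 117, 116 and 108 CPM in negative 2, 6, 7 and 8. All 4 positive libraries were below all 4 negative ones, with negative 2 far above the rest and positive 1 the lowest. The log2 fold change was -0.75 ± 0.19 (SE; 95% interval -1.16 to -0.33; unadjusted p = 0.00193, edgeR adjusted p = 0.309). It stayed between -0.84 and -0.58 with any 1 library left out and was -0.48 without both positive 1 and negative 2, with an unadjusted p under 0.05 in each of these fits. Over the alternative fits, the smallest adjusted p of any Rab lay between 0.0530 (DESeq2) and 0.478 (edgeR without positive 1).

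RAB7A, the Rab that drives maturation of late endosomes and their fusion with lysosomes, was at 73.6, 86.9, 65.3 and 83.2 CPM in the positive libraries (in the order 1, 3, 4, 5, as in all that follows) and at 134, 108, 94.3 and 92.3 CPM in the negative libraries (in the order 2, 6, 7, 8). The groups did not overlap, though positive 3 and negative 8 were close, and negative 2 was again the highest. The log2 fold change was -0.47 ± 0.18 (SE; 95% interval -0.85 to -0.09; unadjusted p = 0.0204, edgeR adjusted p = 0.312). It was -0.33 without negative 2 (unadjusted p = 0.0633) and -0.38 without positive 4 (unadjusted p = 0.0723). Its p was also above 0.05 with scaling by library totals, in limma voom and without both positive 1 and negative 2, and was under 0.05 in 13 of 18 alternative fits. Small pseudogenes of other genes are annotated inside RAB7A.

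RAB9A, which returns mannose 6-phosphate receptors from late endosomes to the Golgi, stood at 3.17, 3.27, 4.13 and 2.88 CPM in the positive and 11.6, 3.55, 5.87 and 5.56 CPM in the negative libraries. Negative 2 was at 327% of the median of the other libraries, and negative 6 lay within the positive range, so the groups overlapped. The row rests on 19 to 80 counts per library. At -0.98 ± 0.36 (SE; 95% interval -1.76 to -0.21; unadjusted p = 0.0169, edgeR adjusted p = 0.312), it had the most negative log2 fold change of the Rabs, and this was -0.56 without negative 2 (unadjusted p = 0.0893).

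RAB36, a little-studied Rab of the Golgi, was the 1 Rab higher in positive cells at an unadjusted p under 0.05. Its positive libraries were at 12.5, 10.7, 10.8 and 10.5 CPM and its negative ones at 5.82, 5.42, 5.71 and 9.13 CPM. Every positive library was above every negative one, and negative 8 was the negative library nearest to them. The log2 fold change was 0.77 ± 0.24 (SE; 95% interval 0.24 to 1.29; unadjusted p = 0.00767, edgeR adjusted p = 0.309) and was 0.68 or more with any 1 library left out. Counts were 32 to 82 per library.

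In GRCh38 with GENCODE annotation these 4 protein-coding genes lie on chromosome 10 at 27504174 to 27542237 (RAB18), chromosome 3 at 128726122 to 128814796 (RAB7A), chromosome X at 13689125 to 13710506 (RAB9A) and chromosome 22 at 23145326 to 23164350 (RAB36), each on the plus strand. Sequence just before the start of the gene is shown for the 3 that were lower in positive cells, because they had the smallest p among the lower Rabs, and a promoter entry was found for them and not for RAB36. RAB21 and RAB5A, Rabs of early endosomes, are shown beside them because they were the 2 Rabs of 38 with a promoter entry that hold TCACGTGA, a palindrome bound by the lysosomal regulator TFEB and related factors. Sequences are from RefSeq (GRCh38.p14, plus strand, 5′ to 3′) and stop before the annotated gene. Capitals mark CACGTG, the core of that palindrome, and GGGCGG, the box bound by SP1, or its reverse complement CCGCCC.
RAB18, chr10:27504054-27504173: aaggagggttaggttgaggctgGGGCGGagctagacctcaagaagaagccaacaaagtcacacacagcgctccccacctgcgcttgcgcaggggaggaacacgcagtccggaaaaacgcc
RAB7A, chr3:128725933-128726121: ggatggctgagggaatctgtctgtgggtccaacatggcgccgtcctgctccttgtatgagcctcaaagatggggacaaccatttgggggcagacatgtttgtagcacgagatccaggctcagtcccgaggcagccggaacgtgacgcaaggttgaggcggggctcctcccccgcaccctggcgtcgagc
RAB9A, chrX:13688878-13689124: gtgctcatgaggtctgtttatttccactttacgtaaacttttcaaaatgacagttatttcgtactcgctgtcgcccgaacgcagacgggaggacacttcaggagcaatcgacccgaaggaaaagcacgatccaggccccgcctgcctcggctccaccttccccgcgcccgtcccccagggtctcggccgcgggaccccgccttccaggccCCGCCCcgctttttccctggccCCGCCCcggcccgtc
RAB21, chr12:71754613-71754862: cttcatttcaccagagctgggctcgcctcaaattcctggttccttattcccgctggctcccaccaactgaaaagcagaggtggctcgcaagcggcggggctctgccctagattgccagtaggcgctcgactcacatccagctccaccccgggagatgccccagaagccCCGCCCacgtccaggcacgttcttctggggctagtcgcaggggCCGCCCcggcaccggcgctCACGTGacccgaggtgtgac
RAB5A, chr3:19946847-19947078: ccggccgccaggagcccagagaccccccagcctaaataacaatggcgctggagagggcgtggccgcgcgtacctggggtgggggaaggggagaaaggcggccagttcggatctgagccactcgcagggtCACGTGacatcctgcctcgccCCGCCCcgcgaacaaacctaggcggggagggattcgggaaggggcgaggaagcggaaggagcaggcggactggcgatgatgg

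CACGTG was found in the 250 bases before the RefSeq start of 4 of the 38 Rabs (10.5%: RAB4A, RAB5A, RAB21 and RAB31). The share was 6.49% of 27305 promoters in the same table, searching both strands. TCACGTGA, which contains it, was in 5.26% of the Rabs and 0.890% of all promoters. GGGCGG was in 86.8% and 42.3%. Unlike the Rabs, the 27305 promoters were not limited to protein-coding genes or to genes with a row, so these shares are of unlike sets. RAB7A, RAB9A and RAB18 hold no CACGTG in this window, which says only that these letters are not in it. The printed stretches stop at the GENCODE gene start and can be shorter than the window. The GGGCGG counted for RAB7A is thus not in its printed stretch. Of the 2 Rabs with the palindrome, RAB21 was at 76.7, 123, 92.7 and 102 CPM in the positive and 154, 109, 95.9 and 98.2 CPM in the negative libraries, with negative 2 the highest (log2 fold change -0.21, and -0.02 without negative 2). RAB5A did not part the groups either, with values given among the early endosomal Rabs.

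**Figure D2:**
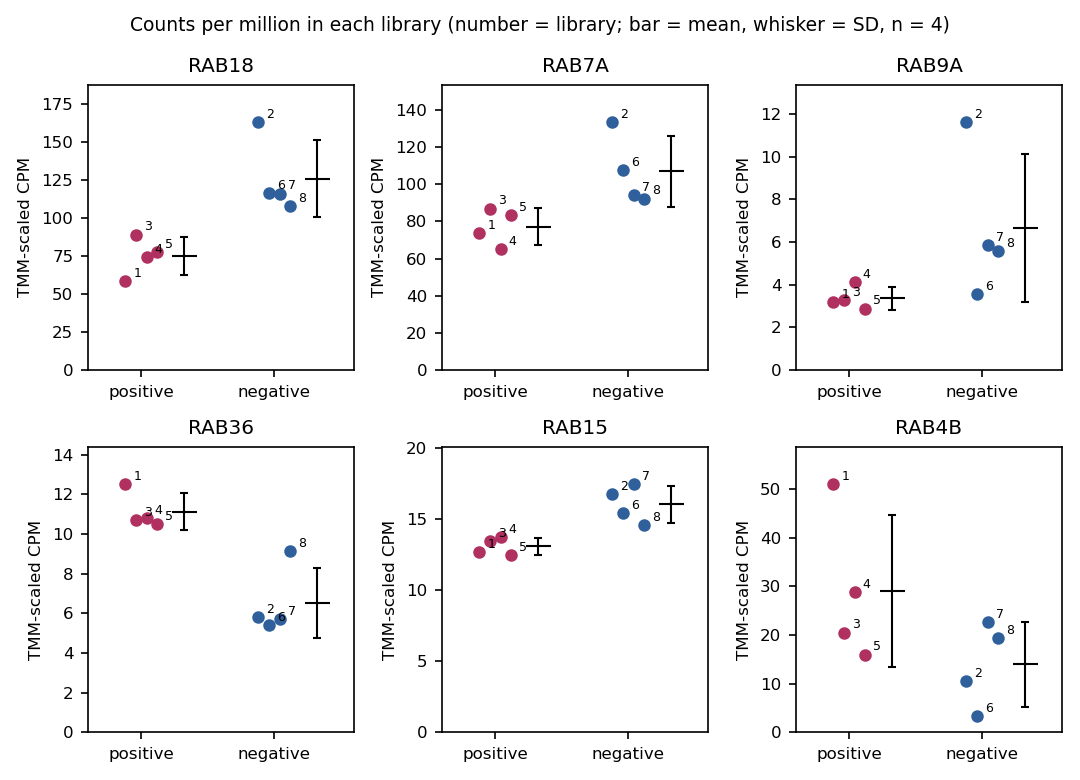
TMM-scaled CPM of 6 Rab genes in each library, on axes that start at 0, with library numbers beside the points and the mean and SD of each group (n = 4) as a bar with whiskers. Groups do not overlap for RAB18, RAB7A, RAB36 and RAB15, negative 2 is the highest library for RAB18, RAB7A and RAB9A, and positive 1 is the highest for RAB36 and RAB4B.

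Among the secretory Rabs, 1 of 22 was higher and 1 lower at an unadjusted p under 0.05, RAB36 and RAB18 (9.09% together, where 14.4% of all rows were), and the median log2 fold change was -0.02. The Rabs of transport from the endoplasmic reticulum to the Golgi other than RAB18 had intervals that spanned 0. RAB1A was at 10.8, 11.9, 12.1 and 16.8 CPM in the positive and 18.0, 12.5, 10.03 and 17.3 CPM in the negative libraries. The ranges overlapped almost fully, at a log2 fold change of -0.16 (95% interval -0.70 to 0.37). For its paralog RAB1B the log2 fold change was -0.05 (-0.37 to 0.28), at 199.6 ± 13.0 and 206 ± 17.7 CPM in positive and negative cells (SD, n = 4 each). RAB2A and RAB2B, which act at the intermediate compartment, were at 0.36 and -0.03. The RAB2A value was 0.11 without negative 2, where the gene stood at 25.2 CPM or 31.9% of the median of the other libraries.

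RAB6A, which moves carriers within and out of the Golgi, was at 211, 130.4, 144 and 137 CPM in the positive and 135, 136, 141 and 142 CPM in the negative libraries. Positive 1 was far above the other 7, which lay together, and the log2 fold change of 0.16 (95% interval -0.23 to 0.56) was -0.02 without it. Reads of RAB6A cannot be told apart from those of its near-identical copies RAB6C and RAB6D by symbol, and neither copy has a row. Other Golgi Rabs were at log2 fold changes of 0.35 (RAB33A), -0.03 (RAB33B, which also binds an autophagy factor), -0.19 (RAB30) and -0.28 (RAB6B). RAB33A and RAB6B rest on under 35 counts in each library, and all 4 intervals spanned 0.

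The 11 Rabs of exocytosis held no gene at an unadjusted p under 0.05, where 14.4% of all rows had such a p. Their median log2 fold change was 0.07, and that of all rows was -0.02. RAB27A, which docks secretory granules, lysosome-related organelles and exosome-bearing endosomes at the plasma membrane, was at 30.7, 31.6, 34.6 and 29.9 CPM in the positive and 32.6, 30.5, 38.7 and 32.8 CPM in the negative libraries. Its paralog RAB27B was at 29.5, 40.1, 53.6 and 44.0 CPM in the positive and 49.9, 40.6, 40.9 and 46.6 CPM in the negative libraries. Neither pair of groups was parted, and the 95% intervals of the log2 fold change, -0.45 to 0.28 for RAB27A and -0.52 to 0.34 for RAB27B, both lay inside a 1.5-fold change either way.

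The RAB3 genes serve regulated secretion. RAB3B was at 40.5, 78.7, 55.2 and 76.7 CPM in the positive and 106, 66.5, 83.4 and 78.3 CPM in the negative libraries. Negative 2 was the highest and positive 1 the lowest library, and the log2 fold change of -0.41 (95% interval -0.91 to 0.08) was -0.10 without both. For RAB3D the values were 55.6, 70.8, 52.4 and 60.8 CPM in the positive and 48.3, 61.8, 70.1 and 61.0 CPM in the negative libraries. These ranges coincided, with a log2 fold change of -0.01 (-0.39 to 0.37). RAB3A, best known from synaptic vesicles, was at 5.67, 3.92, 4.13 and 2.23 CPM in the positive and 2.76, 4.23, 2.47 and 2.99 CPM in the negative libraries, on 16 to 34 counts per library. Positive 1 was its highest library, and the log2 fold change of 0.35 was 0.14 without it.

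RAB8A, which carries vesicles from the Golgi and recycling endosomes to the plasma membrane, was at 126, 93.2, 105 and 89.5 CPM in the positive and 131, 101, 67.3 and 133 CPM in the negative libraries. The groups overlapped (log2 fold change -0.07, 95% interval -0.55 to 0.41), and negative 7 was the lowest and negative 8 the highest library. RAB8B and RAB10, which act on the same route, were at log2 fold changes of 0.16 and 0.18. Both were at -0.11 without negative 2, where they stood at 29.4% and 23.7% of the median of the other libraries. RAB13, a Rab of tight junctions, was at 0.07 and at -0.17 without positive 1. The granule Rabs RAB26 and RAB37 were at 0.32 and 0.47, and RAB37 was 0.16 without negative 2, which held it at 5.23 CPM against 19.9 to 34.6 CPM in the other libraries.

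None of the 13 endosomal Rabs had an unadjusted p under 0.05 with TMM scaling and all libraries (14.4% of all rows did), and their median log2 fold change was 0.06, with 8 above and 5 below 0. Across 18 alternative fits, RAB4B was higher at such a p in 10, RAB4A higher in 4 and RAB31 lower in 2. RAB4A was not tested in the fit with a minimum count of 50. RAB5A, which sets early endosome fusion, was at 83.9, 101, 124 and 102 CPM in the positive and 94.2, 115, 87.8 and 104 CPM in the negative libraries. RAB5B, its paralog, was at 288, 320.1, 293 and 298 CPM in the positive and 243, 323, 306 and 279 CPM in the negative libraries. The groups overlapped for both genes, at log2 fold changes of 0.04 (-0.33 to 0.41) and 0.06 (-0.28 to 0.40), intervals that lie inside a 1.5-fold change either way. RAB22A and RAB31, which link early endosomes and the Golgi, were at -0.22 and -0.40. The RAB31 value was -0.74 without positive 4 and -0.19 without positive 1, its lowest library at 18.4 CPM.

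RAB11A, the Rab of slow recycling endosomes, was at 218, 200.3, 175 and 235 CPM in the positive and 176, 234, 162 and 204 CPM in the negative libraries. RAB11B was at 167, 134, 149 and 111 CPM in the positive and 104, 147, 188 and 149.7 CPM in the negative libraries. The groups overlapped for both, and both 95% intervals, -0.28 to 0.47 and -0.51 to 0.37, lay inside a 1.5-fold change either way. For RAB11A 2 processed pseudogenes are annotated, and neither has a row. RAB4A and RAB4B, the Rabs of fast recycling, had the largest positive log2 fold changes of all Rabs, 0.97 and 1.05, with 95% intervals of -0.02 to 1.96 and -0.004 to 2.10 (unadjusted p = 0.0538 and 0.0507, edgeR adjusted p = 0.354 and 0.349). RAB4A was at 3.84, 2.61, 2.80 and 2.49 CPM in the positive and 0.727, 3.22, 1.24 and 0.856 CPM in the negative libraries, on 5 to 23 counts. Negative 6 lay among the positive libraries and the other negative ones below them, and the log2 fold change was 1.62 without negative 6 (unadjusted p = 0.00200) and 0.76 without negative 2. The gene SPHAR lies inside RAB4A on the same strand. RAB4B was at 51.1, 20.5, 28.8 and 16.0 CPM in the positive and 10.5, 3.38, 22.7 and 19.4 CPM in the negative libraries. Positive 1 was at 263% of the median of the others and negative 6 the lowest, and the log2 fold change was 0.63 without positive 1 and 0.72 without negative 6. RAB4B overlaps the readthrough genes MIA-RAB4B and RAB4B-EGLN2 on its own strand, whose reads can be divided with it.

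RAB15, a Rab of recycling endosomes best known from neurons, was at 12.7, 13.5, 13.7 and 12.5 CPM in the positive and 16.7, 15.4, 17.4 and 14.5 CPM in the negative libraries. Its groups did not overlap, but the gap between positive 4 and negative 8 was small and the log2 fold change of -0.29 had a 95% interval of -0.69 to 0.11 (edgeR unadjusted p = 0.139). CHURC1-FNTB overlaps the gene span of RAB15 on the opposite strand, as other genes do for RAB5A and RAB14. Whether the RAB15 amplicon lies in the shared part, where strand would be needed to tell reads apart, was not tested. RAB14, which moves cargo between Golgi and endosomes, was at 0.32 and 0.04 without negative 2, where it stood at 25.9% of the median of the others. RAB35, a Rab of recycling to the plasma membrane, was at 0.18 and at 0.03 without positive 1. RAB17, an epithelial Rab, was at 0.21 on 1 to 24 counts, at 0.88 without negative 7 and at -0.17 without negative 2.

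Of the 8 tested lysosomal Rabs 2 were lower at an unadjusted p under 0.05, RAB7A and RAB9A, and 0 higher, where 6.85% of all rows were lower and 7.52% higher. Without negative 2 neither had such a p (0.0633 and 0.0893, edgeR unadjusted). The median log2 fold change was -0.14, with 2 above and 6 below 0. RAB32, which acts on lysosome-related organelles and mitochondria, was at 81.9, 91.5, 109 and 79.6 CPM in the positive and 125, 116, 129 and 82.7 CPM in the negative libraries. Negative 8 lay among the positive libraries and the other negative ones above them, and the log2 fold change was -0.32 (95% interval -0.73 to 0.08). RAB38, its close relative, known for melanosomes and for the lamellar bodies of alveolar type 2 cells, was at 9.34, 5.36, 4.93 and 4.33 CPM in the positive and 5.67, 8.29, 5.71 and 5.13 CPM in the negative libraries. Positive 1 and negative 6 were high in their groups, and the log2 fold change of -0.06 (-0.71 to 0.60) was -0.34 without positive 1 and 0.11 without negative 6.

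RAB34, which positions lysosomes and also serves ciliogenesis, was at a log2 fold change of 0.15 (-0.21 to 0.52), with 338 ± 54.0 and 304 ± 24.5 CPM in positive and negative cells (SD, n = 4 each). RAB29, which recruits the kinase LRRK2, was at -0.15 (-0.58 to 0.28), and both intervals lay inside a 1.5-fold change either way. RAB12, which sends transferrin receptors to lysosomes, was at 0.38 and 0.12 without negative 2, where it stood at 28.2% of the median of the others. RAB20, a Rab of phagosomes, was at -0.12. GLB1, which encodes the lysosomal enzyme behind the stain, was at 28.9, 49.8, 43.7 and 51.5 CPM in the positive and 44.9, 56.0, 53.7 and 50.2 CPM in the negative libraries (log2 fold change -0.23, 95% interval -0.67 to 0.20), with positive 1 the lowest. In bulk RNA, fewer cells with a transcript and less of it per cell cannot be told apart.

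The 6 remaining Rabs had intervals that spanned 0. RAB40C and RAB40B, which serve as adaptors of ubiquitin ligases, were at 0.41 (-0.03 to 0.85) and 0.14. RAB28 and RAB23, Rabs of the cilium, were at 0.44 and -0.06. Without negative 8 they were at 0.91 and 0.22, and RAB28 was at 0.20 without positive 5. RAB28 has 5 annotated pseudogenes without rows. RAB42 was at 0.33 and the neuronal RAB39B at -0.45, on 4 to 30 counts.

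**Figure D3:**
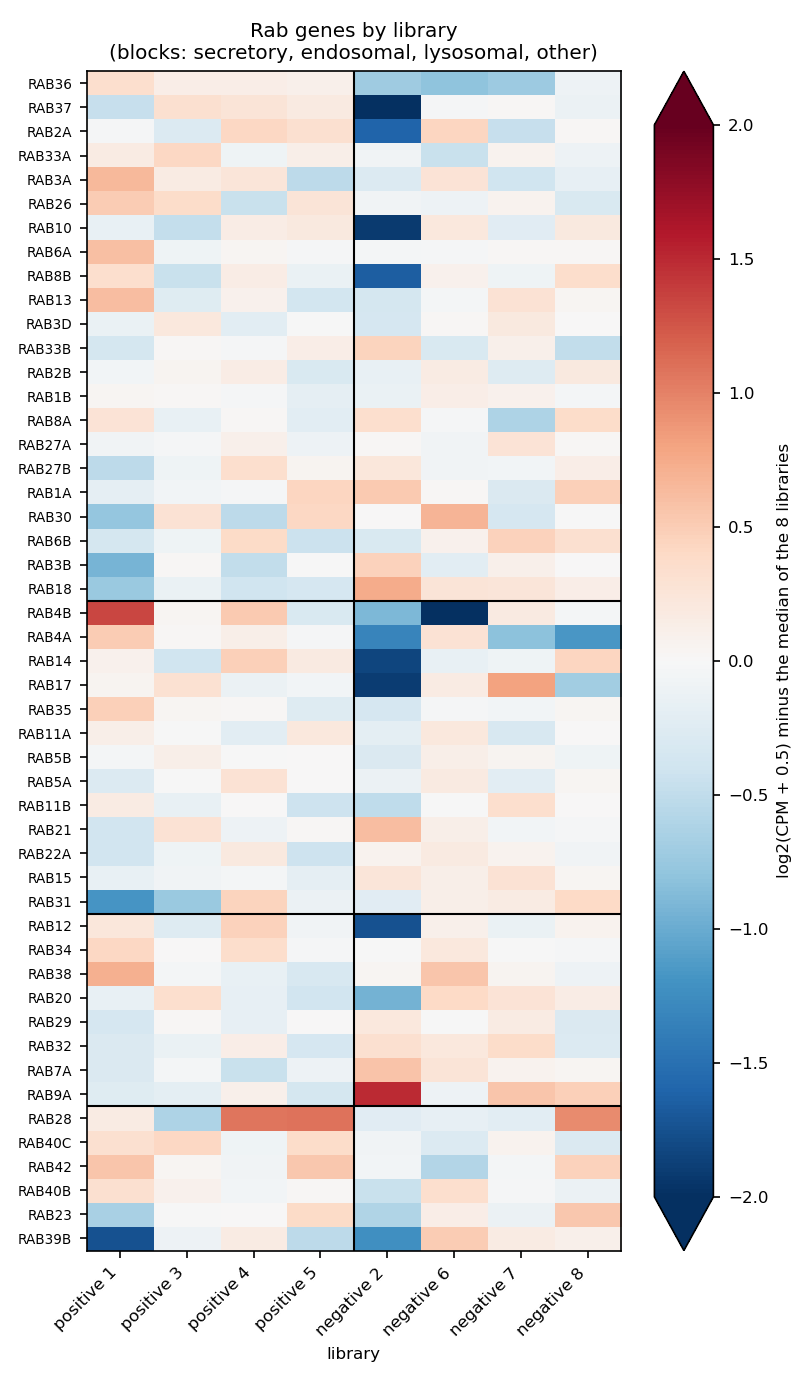
Each cell is log2(CPM + 0.5) of 1 Rab gene in 1 library minus the median of the 8 libraries for that gene, red above and blue below, with colours limited at 2 either way. The column of negative 2 is dark blue for RAB37, RAB10, RAB17, RAB14, RAB12, RAB8B and RAB2A and dark red for RAB9A, negative 6 is dark blue for RAB4B, and positive 1 is dark blue for RAB39B and dark red for RAB4B.

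Libraries negative 2 and positive 1 set many of the extremes among the Rabs, as they did over all rows. Negative 2 was the lowest of the 8 libraries for 14 Rabs and the highest for 8 (44.9% together, against 55.6% of all rows), and positive 1 was the lowest for 10 and the highest for 11 (42.9%, against 47.8%). RAB2A, RAB8B, RAB10, RAB12, RAB14 and RAB37, from all 3 classes, stood in negative 2 at 18.5% to 31.9% of the median of the other libraries. RAB7A, RAB9A, RAB18 and RAB21 stood there at 154% to 327%. Without negative 2, 2 Rabs had an unadjusted p under 0.05, RAB36 and RAB18, where 9.70% of all rows did, and the same 2 without both libraries, where 10% did.

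The mean log2-CPM over the tested genes of a class was 4.95 ± 0.03 in positive and 4.88 ± 0.17 in negative cells for the 22 secretory Rabs (SD, n = 4 each). It was 5.47 ± 0.10 and 5.28 ± 0.26 for the 13 endosomal Rabs, and 4.88 ± 0.10 and 5.03 ± 0.11 for the 8 lysosomal Rabs. In each class the ranges of the 2 groups overlapped. Negative 2 was the lowest library for the secretory and endosomal Rabs, at 4.64 and 4.90, and positive 5 for the lysosomal Rabs, at 4.73. For 15 of 49 Rabs (30.6%) the 95% interval of the log2 fold change lay inside a 1.5-fold change either way, where 19.1% of all rows did, and for 33 (67.3%) inside a 2-fold change, where 66.6% did.

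**Figure D4:**
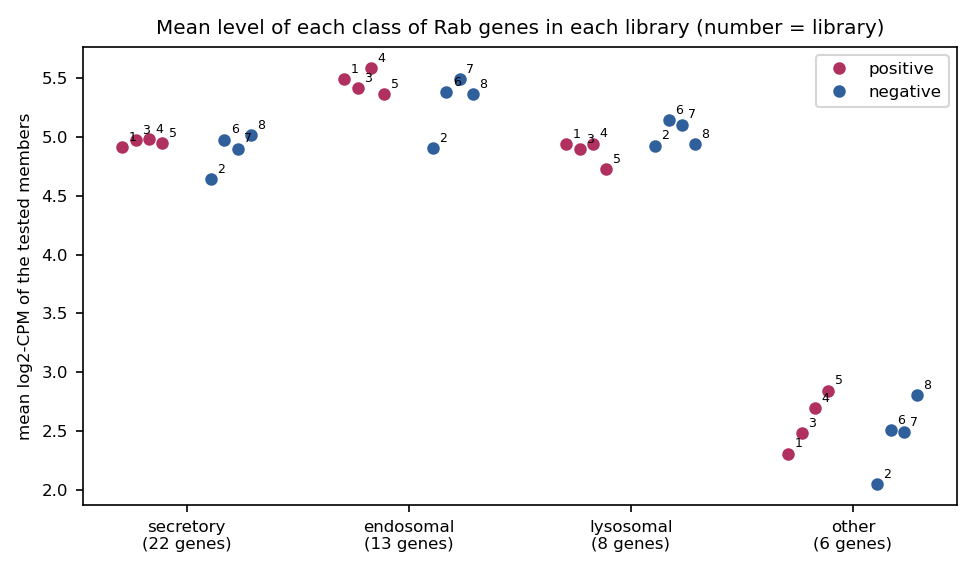
Mean log2-CPM of the tested Rabs of each class in each library, with library numbers beside the points, positive cells on the left and negative cells on the right of each pair. The groups overlap in all 4 classes, and negative 2 is the lowest library for the secretory and endosomal Rabs, at 4.64 and 4.90.

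The genes that load, switch and answer to Rabs were read from 4 lists. Of 6 tested genes (8 listed) for prenylation and release from membranes, 1 was higher and 1 lower at an unadjusted p under 0.05, where 7.52% and 6.85% of all rows were. CHML, which escorts new Rabs to the prenylating enzyme, was at 5.84, 3.14, 3.46 and 2.62 CPM in the positive and 0.727, 1.86, 1.39 and 1.85 CPM in the negative libraries, without overlap (log2 fold change 1.35 ± 0.40 (SE), edgeR adjusted p = 0.309), on 5 to 35 counts. GDI2, which extracts GDP-bound Rabs from membranes, was at 322, 581, 501 and 493 CPM in the positive and 929.9, 700.3, 643 and 534 CPM in the negative libraries, with negative 2 the highest and positive 1 the lowest (log2 fold change -0.56 ± 0.22, and adjusted p = 0.319). RABIF, a Rab chaperone, was at -0.15. The count of 2 was 1, a higher gene, without positive 1 or without negative 2, where 10.4% and 9.7% of all rows had such a p.

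Of 37 tested exchange factors (49 symbols listed) 2 were higher (5.41%, against 7.52% of all rows) and 1 lower at an unadjusted p under 0.05. The count was 0 without negative 7, 1 without positive 1, positive 3 or positive 4, and 6 without negative 8, of 37 or 38 tested. Of all rows, 10.9% had such a p without negative 7 and 17.2% without negative 8. Without positive 1, 3 or 4 the share was 10.4%, 12% and 10.7%. RIN1, an exchange factor for the RAB5 proteins, was at -0.60 and DENND4B, which acts on RAB10, at 0.51, both without overlap between groups. TRAPPC6B of the TRAPP complex was at 1.25 with overlapping groups, on 3 to 53 counts and at 0.436 CPM in negative 2. HPS1, which acts on RAB32 and RAB38, was at -0.42. The GTPase-activating proteins had 4 of 34 tested genes (38 listed) higher (11.8%, against 7.52% of all rows) and 0 lower. Their median log2 fold change was nonetheless -0.08, with 15 of the 34 above 0. The 4 higher genes were SGSM3 (0.75), SGSM2 (0.60), TBC1D9B (0.40) and TBC1D8 (0.50). Without both positive 1 and negative 2 the count was 2, where 10% of all rows had such a p in either direction. Without positive 1 alone, 1 of 34 was higher and 0 lower, where 10.4% of all rows had one.

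Effectors had 9 of 56 tested genes (66 symbols listed) higher (16.1%, against 7.52% of all rows) and 1 lower, and a median log2 fold change of 0.14. The smallest p belonged to MICAL1, an actin-oxidizing enzyme that binds several Rabs, at 21.9, 5.88, 9.33 and 8.39 CPM in the positive and 3.78, 4.57, 4.63 and 5.28 CPM in the negative libraries. RAB11FIP3, an effector of RAB11A, was at 46.2, 26.4, 27.3 and 22.0 CPM in the positive and 11.9, 17.6, 20.7 and 19.4 CPM in the negative libraries. Positive 1 was the highest library for both, and the groups did not overlap (log2 fold changes 1.30 ± 0.38 and 0.81 ± 0.27 (SE)). BICD2, which couples RAB6A carriers to dynein, and the exocyst subunit EXOC5 were at 0.58 and 0.95. EXOC5 was lowest in negative 2, at 5.96 CPM. The 1 lower gene of the effector list was EXOC2, also of the exocyst, at -0.68 without overlap between groups. The list holds subunits of the exocyst, and whether EXOC2 and EXOC5 bind Rabs themselves was not tested. No gene of the 4 lists passed in edgeR's test, the smallest adjusted p being 0.309. Without positive 1, 4 of 57 tested effectors were higher and 0 lower, where 10.4% of all rows had such a p in either direction. Without both positive 1 and negative 2, 4 of 56 were higher and 1 lower, where 10% of all rows had one. Beyond these fits, the part of positive 1 in the effector count was not tested.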

How the data were processed

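RNA of 4 positive and 4 negative libraries was made into amplicon libraries with an Ion Torrent AmpliSeq kit for human transcripts, per the labels' protocols. The authors deposited estimated counts per gene symbol, whole numbers not scaled to a common depth. The tools named are fastp 0.20.1 and Salmon 1.9 and the build GRCh38, per the submitters' processing notes. The annotation, the summing to genes and any use of strand were not given in the sources used here.

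Rows were filtered with filterByExpr (minimum count 10, total 15), which kept 11351 and removed 2490, and fitted with edgeR 4.0.16 (TMM scaling, robust quasi-likelihood test, R 4.3.3), with Benjamini-Hochberg adjustment over all rows and a threshold of 0.05. No Rab symbol stood on more than 1 row. CPM values are TMM-scaled, and class means are of log2-CPM with a prior count of 2. No molecular identifiers are named in the labels, and intervals reflect the spread of libraries. Between 2 libraries, chi-square divided by its degrees of freedom was 7.98 or more, so none were merged. DESeq2 1.42.0, limma 3.58.1 (voom with library weights), other scalings and filters, and removal of each library were alternatives. The removal of libraries in the counts of partner genes was chosen after seeing the data.

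Members, classes and lists were chosen with earlier results of these data known. Every tested Rab is named. Values in every library are given for those at an unadjusted p under 0.05, those without overlap and a fixed set of well-known Rabs, and of each partner list the 4 genes of smallest p are named, except 1 result that is not reported here. RAB21 (for its promoter), RAB4B (for its fold change) and EXOC2 of the effector list (for its direction) were added after their values were seen. Gene positions are from GENCODE release 29 (50 of 50 Rabs matched) and promoters from RefSeq (38 of 50). In counts simulated for this comparison over 11351 genes in 3 runs, recovery at the adjusted threshold was 0.995% for the 201 genes with a 1.5-fold change, 34.8% for the 201 with a 2-fold and 88.9% for the 198 with a 4-fold change. Each simulated count was drawn independently, so no simulated library stood apart over many genes as negative 2 and positive 1 did. Recovery in the data may therefore differ from these shares.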

Additional observations from a re-analysis of the deposited data

Results flagged for a closer look

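In 7 of 98 groups of 4 values (49 Rabs in 2 groups), 1 library lay far from the other 3 by Dixon's ratio at its 95% critical value, where chance alone marks about 1 group in 20. The share of such groups over all rows was not counted. Among negative libraries, negative 2 was the highest for RAB18, at 164 CPM against 108 to 117, and the lowest for RAB37, at 5.23 CPM against 25.4 to 28.3. Negative 8 was the highest for RAB36, at 9.13 CPM against 5.42 to 5.82, and for RAB28, at 7.56 CPM against 3.05 to 3.22. Negative 6 was the highest for RAB34, at 341 CPM against 290.2 to 293. Among positive libraries, positive 1 was the highest for RAB36, at 12.5 CPM against 10.5 to 10.8, and for RAB6A, at 211 CPM against 130.4 to 144. RAB18 and RAB36 are thus genes of small p with an outlying library, and RAB18 kept an unadjusted p of 0.00437 without negative 2 and RAB36 one of 0.0161 without positive 1 and 0.00147 without negative 8.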

How the results depend on the processing

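No paired analysis was possible because each library number is used once, so the groups share no replicate number. DESeq2's Wald test called 52 rows against 0 in edgeR, no Rab among them, while limma voom called 0. Without negative 6 or negative 8 edgeR called 1 row, the range over single removals being 0 to 1. Of 49 tested Rabs, the 4 at an unadjusted p under 0.05 became 7 with upper quartile scaling (4 higher, 3 lower). With library totals alone they became 6 (4 higher, 2 lower). Of all rows, 13.8% and 13.1% had such a p in these 2 fits, against 14.4% with TMM scaling. The count was 2 without both positive 1 and negative 2, where 10% of all rows had such a p. It was also 2 at a threshold of 0.01. With 1 library left out it ran from 2 without negative 2 to 6 without positive 4 or without negative 8. The shares of all rows in these 3 fits were 9.7%, 10.7% and 17.2%. RAB18 and RAB36 had an unadjusted p under 0.05 in each of 18 alternative fits, RAB9A in 15 and RAB7A in 13. The Rabs gained were RAB4B (10), RAB40C (5), RAB4A (4), RAB31 (2), RAB26 (1) and RAB32 (1). The alternative filter at a minimum count of 50 removed RAB9A and RAB4A, so neither was tested in that fit. The Rabs without overlap numbered 4 to 9 with 1 library left out, 9 being without positive 4, where 13.2% of all rows did not overlap. Scaling by library totals moved the median of all rows from -0.02 to 0.10, that of the secretory Rabs to 0.10 and that of the lysosomal Rabs from -0.14 to -0.025. The lysosomal median was -0.25 without both positive 1 and negative 2, and -0.25 (without positive 3) to -0.073 (without negative 6) with 1 library left out. The medians of all Rabs and of the secretory Rabs changed sign between alternatives and lay between -0.04 and 0.11. The median half-width of the 95% interval over the Rabs was 0.52 on the log2 scale, which limits what could be seen. The cause of these shifts was not tested.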
